A study of Homo sapiens with 10 samples.

Results

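The channel genes analysed here encode the voltage-gated sodium and calcium channels and the potassium channels, with their auxiliary subunits. They were chosen by symbol from the protein-coding genes of GENCODE 44: SCN1A to SCN11A, CACNA1 followed by a letter, CACNA2D and CACNB followed by a digit, and every KCN gene. This gave 124 of 20033 protein-coding genes. A peak was counted for a gene when its summit lay in the gene body or within 600 bases past the 3′ end of the gene.

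The peaks came from 3′-end sequencing of polyadenylated RNA in IMR-32, a cell line from a human neuroblastoma. Cells were transduced with lentiviral shRNA against CDK12 (CDK12 sh22 and CDK12 sh98), against CDK13 (CDK13 sh701 and CDK13 sh704), or against GFP as the control (shGFP), and all were selected with puromycin. Each of these 5 shRNAs had 2 libraries, 10 in all, labelled as biological duplicates. Each CDK is thus represented by 4 libraries and the control by 2, and knockdown is by shRNA, so the genes for CDK12 and CDK13 themselves remain intact. The libraries had been processed in different batches, downsampled and merged, and the peaks were called once on the merged reads. The list holds 178837 peaks and carries neither a strand nor a value for any library or group. The knockdowns therefore could not be compared with the control, the depletion of CDK12 and CDK13 could not be checked, no value below has a replicate error, and the depth of each library is unknown. The values describe which 3′ ends of channel transcripts were seen in the mixture of all 10 libraries, and intervals are 95% intervals that cover counting error only.

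Ion channels set the electrical behaviour of a cell. Sodium channel alpha subunits (SCN genes) carry the rising phase of the action potential, calcium channel alpha-1 subunits (CACNA1 genes) let calcium in upon depolarisation, and potassium channels bring the membrane back to rest. Auxiliary subunits (CACNA2D, CACNB, KCNAB, KCNE, KCNIP and KCNMB genes) alter trafficking and gating of the pore. Many of these genes are very long and consist mostly of introns. The 3′ end of an mRNA is made by cleavage and polyadenylation, usually directed by a hexamer such as AATAAA a short way upstream of the cleavage site, and polyadenylation inside an intron gives a shortened transcript. In 3′-seq the oligo(dT) primer can also anneal to a run of A inside an RNA, so the genomic sequence next to each peak is shown with it.

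The height of a peak is given as its pileup, the number of pooled reads that overlap its summit. A terminal peak lay between 200 bases upstream and 600 bases downstream of the end of any annotated transcript of the gene. The other peaks were exonic if they overlapped an exon of any transcript, and otherwise intronic. Because the assay reads from the cleavage site, the 3′ edge of a peak on the strand of the gene marks the cleavage side. The last 30 bases up to that edge, or 30 bases from the hexamer on for KCNJ12, are shown for the strongest terminal peaks of 5 genes, which are among the channel mRNAs with the most reads. They were read from GRCh38 on the strand of the gene, and capitals mark a poly(A) hexamer.

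KCNH2, chr7:150944935-150944964, minus strand: gagactccagtggtgctgggagggtgtaac
KCNG1, chr20:51003440-51003469, minus strand: aaaaagagaacagacactttaaggaaaatg
KCNQ5, chr6:73199097-73199126, plus strand: tatctatAATAAAgggatttgctaaacaat
CACNA2D2, chr3:50362772-50362801, minus strand: aaatggttcccatccactgtatcagcttgg
KCNJ12, chr17:21419846-21419875, plus strand: ATTAAAtgcattttgatctctttgaggtcc

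The hexamer started 23 bases before the 3′ edge in KCNQ5 and 35 bases before it in KCNJ12. In KCNH2, KCNG1 and CACNA2D2 none of the 12 hexamers searched started 10 to 40 bases before the edge. The edge of a peak is set by the peak caller and can lie some bases from the cleavage site. None of the 5 had more than 5 A among the 10 bases that follow the edge.

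Of the 124 channel genes, 95 had at least 1 peak (76.6%, Wilson interval 68.4% to 83.2%), against 77.2% of all protein-coding genes. A terminal peak was present in 78 (62.9%, 54.1% to 70.9%), against 68.7% of all genes, and an intronic peak in 77 (62.1%, 53.3% to 70.2%), against 59.4%. The share of channel genes with any peak was thus close to that of all genes. The shares in all genes were not matched for length. The median gene length was 70.1 kb in the channel genes and 27.5 kb in all protein-coding genes. A peak at the end of the Ensembl canonical transcript itself was found for 65 genes (52.4%, 43.7% to 61.0%; 59.3% of all genes). Where terminal peaks were present they were lower than in other genes. The strongest terminal peak had at least 20 reads in 22 of the 78 genes (28.2%, 19.4% to 39.0%), against 60.6% of the 13761 protein-coding genes with a terminal peak. The median of the strongest terminal peak was 14 reads in the channel genes and 23 in all genes. In bulk RNA, a weak peak in every cell and a stronger one in fewer cells cannot be told apart.

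The cells carried the peaks of their labelled type. All 15 markers of adrenergic neuroblastoma had a terminal peak, with 16 to 114 reads (median 46) and the highest value at PHOX2A, a transcription factor of the sympathetic lineage. Of 7 mesenchymal markers 6 had one, with 8 to 36 reads, and PRRX1, a defining factor of that state, had none. Glial markers reached 6 to 14 reads in 3 of 4 genes, none of 4 blood markers had a terminal peak, and ALB (3 reads) and ACTA1 (7 reads) were the sole positives among 2 liver and 3 muscle markers.

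**Figure D1:**
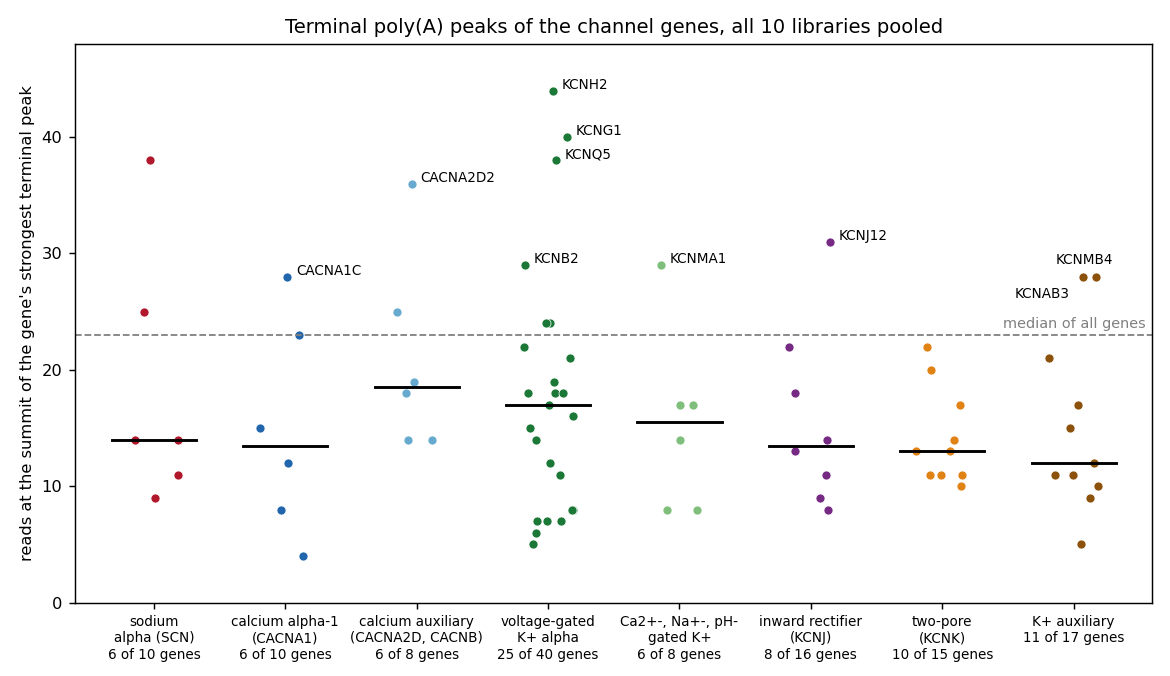
Reads at the summit of the strongest terminal peak (y axis) for each of the 78 channel genes that had one, by family (x axis, with the number of genes that had one); each point is a gene, black bars are family medians and the dashed line is the median of all protein-coding genes, 23 reads. Every family median lies below the dashed line, and KCNH2, KCNG1 and KCNQ5 are the highest labelled points.

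Among the voltage-gated potassium channel alpha subunits, 25 of 40 genes had a terminal peak, with 5 to 44 reads (median 17). KCNH2, which encodes the channel of the rapid delayed rectifier current of the heart, had the highest terminal peak of all channel genes, with 44 reads and a fold enrichment of 24.9 over the local background. This peak lay 0.061 kb from the 3′ end of the gene, in a gene of 33.4 kb without a single intronic peak. KCNG1, an electrically silent subunit that assembles with KCNB subunits, followed with 40 reads, and KCNQ5, a subunit of the neuronal M-current, with 38. The terminal peak of KCNG1 overlaps a lncRNA gene on the opposite strand, and the list cannot tell the strands apart. KCNB2, a delayed rectifier, had 29 reads. The Shaker-type KCNA genes were at the low end. KCNA1, KCNA5, KCNA6, KCNA7 and KCNA10 had no peak of any kind, KCNA2 had 7 reads and KCNA3 had 5.

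Among the sodium channels, SCN8A, a neuronal channel of the axon initial segment and nodes of Ranvier, had 25 reads. SCN2A and SCN9A had 14 reads each, SCN3A 11 and SCN11A 9. The SCN2A peak, its sole terminal one, lay 76.8 kb upstream of the 3′ end of the gene. In SCN2A and SCN11A 8 of the 10 bases after the edge were A, and the canonical end of SCN11A had 3 reads. The terminal peaks of SCN3A and SCN9A also lie in lncRNA genes of the opposite strand. SCN1A and SCN7A had no terminal peak and 1 intronic peak each, and SCN4A, the channel of skeletal muscle, and SCN10A, a channel of sensory neurons, had no peak. Terminal peaks were therefore seen for 6 of 10 sodium channel genes, and SCN8A stood above the median of all genes.

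Of the 10 calcium channel alpha-1 genes 6 had a terminal peak, with 4 to 28 reads. CACNA1C, an L-type channel, had 28 reads, although this peak lay 5.10 kb from the 3′ end of the gene, at the end of another transcript. CACNA1H, a T-type channel, had 23 reads, CACNA1B, the N-type channel of presynaptic terminals, had 15, and CACNA1D, another L-type channel, had 12. The CACNA1H and CACNA1D peaks also lie in genes of the opposite strand, TPSG1 and CHDH. The CACNA1B peak lay 2 kb from the 3′ end of the gene, with 7 A in the 10 bases after the edge. Neither CACNA1B nor CACNA1D had a peak at its canonical end. CACNA1A, the P/Q-type channel of central synapses, had 4 reads, the lowest of the 78 genes, and the 10 bases after the edge of this peak were all A. CACNA1E, CACNA1F and CACNA1S had no peak. The auxiliary subunits of calcium channels reached 14 to 36 reads in 6 of 8 genes, with CACNA2D2 at 36, CACNA2D1 at 25, CACNB2 at 19 and CACNB4 at 18. CACNA2D1 and CACNA2D2 are the alpha-2-delta subunits that bind gabapentin. The CACNA2D2 peak also lies in a protein-coding gene annotated on the opposite strand, and the CACNB4 peak in one annotated on the same strand. CACNA2D2 and CACNB2 had no peak at their canonical ends.

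The remaining potassium channel families had medians between 12 and 15.5 reads. KCNMA1, the pore of the large-conductance calcium-activated channel, had its highest terminal peak (29 reads) 767 kb from the 3′ end of the gene, close to its 5′ end, and 15 reads at the end of its canonical transcript. Its neuronal partner KCNMB4 had 28 reads at a peak 3.31 kb from the 3′ end of the gene, and no peak at its canonical end. Among the inward rectifiers (KCNJ genes) 8 of 16 had a terminal peak, and KCNJ12 was highest with 31 reads. KCNJ18, a near-identical copy of KCNJ12, had no peak, and how reads shared by both were placed is not known, so the value of KCNJ12 is uncertain. Of the tandem-pore (KCNK) leak channels 10 of 15 had one, with 10 to 22 reads and the highest in KCNK2. KCNAB3, a cytoplasmic beta subunit, had 28 reads. KCNAB1 had 21 reads, but with a fold enrichment of 4.01 the background there was high, and the peak also lies in SSR3 on the opposite strand.

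For 17 of the 78 genes (21.8%, 14.1% to 32.2%) the strongest terminal peak lay more than 10 kb upstream of the 3′ end of the gene, against 11.7% of all genes with a terminal peak. This comparison was not matched for length, and such a distance is not possible in genes shorter than 10 kb. The median gene length was 70.1 kb over all channel genes and 27.5 kb over all protein-coding genes. By this distance, KCNMA1 was the extreme. Others were KCNS3 at 429 kb, KCNH1 at 181 kb and KCNC1 at 79.1 kb. In KCNC1 the canonical end had 5 reads against 22 at the upstream end, and in KCNH1 13 against 17. In KCNS3 the upstream peak is itself the end of the canonical transcript. Annotated short transcripts thus held the higher peak in KCNMA1, KCNC1 and KCNH1.

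Inside the genes, intronic peaks were far more numerous than terminal ones. The channel genes held 162 terminal, 88 exonic and 1369 intronic peaks. The intronic peaks were concentrated in few genes, with 645 of them (47.1%) in 6 genes and 1123 (82.0%) in 20. KCNQ5 had 134 intronic peaks in 577 kb. KCNH7, a channel of the same subfamily as KCNH2 that is found in the nervous system, had 118 in 467 kb. CACNA2D1 had 112 in 498 kb, and KCNB2 had 102 in 401 kb. CACNA1C had 92 in 727 kb, KCNT2, a sodium-activated potassium channel, had 87 in 383 kb, and CACNB2, a cytoplasmic beta subunit, had 74 in 403 kb. KCNH1 followed with 64, and CACNB4 and KCNH8 with 47 each. At 22.5 to 25.4 peaks per 100 kb, KCNQ5, KCNH7, CACNA2D1, KCNB2 and KCNT2 had nearly the same density.

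Since longer genes hold more intronic peaks, each channel gene was set beside the 200 other protein-coding genes nearest to it in length. Over all channel genes the 1369 intronic peaks were 0.88 times the number expected from such genes (exact Poisson interval 0.83 to 0.93). Among the 78 genes with a terminal peak, compared with genes that also had one, the ratio was 0.91 (1316 peaks against 1452 expected, interval 0.86 to 0.96). Its direction depended on the peaks used, since it was 1.01 for peaks with a −log10 q-value from 5 upwards, 2.02 for those from 20 upwards, and 1.02 without peaks in another gene. The intervals treat peaks as independent, which peaks of the same gene are not. Without the 6 genes with the most intronic peaks this second ratio was 0.57, so those genes carried much of the total.

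**Figure D2:**
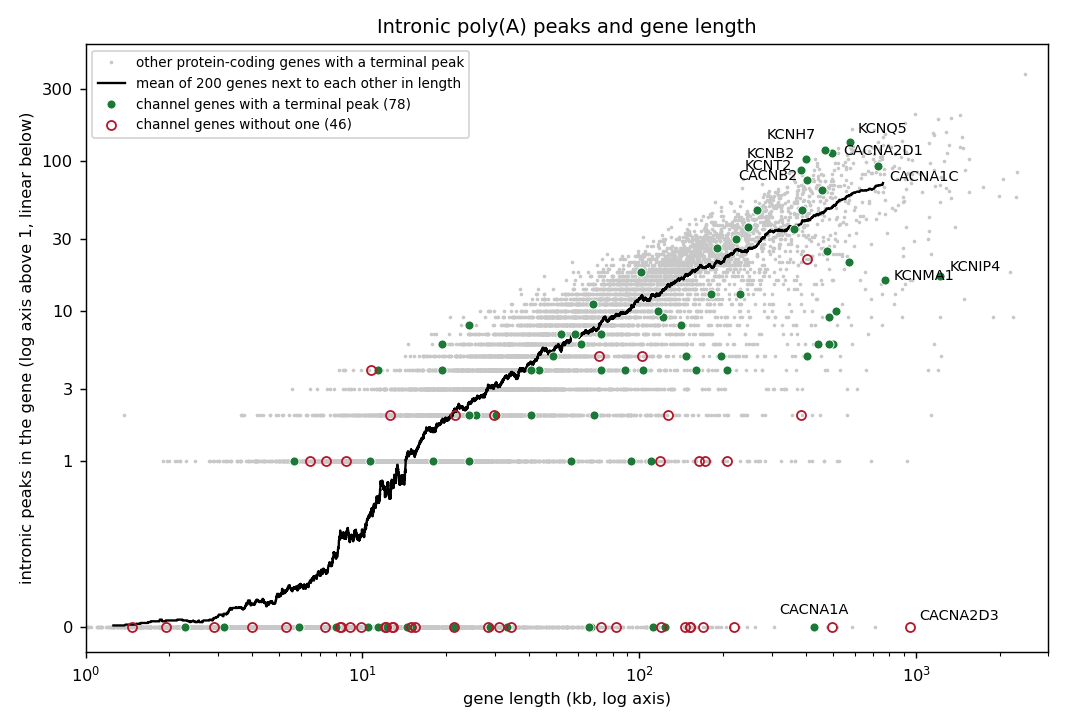
Number of intronic peaks (y axis, logarithmic above 1) against gene length (x axis, kb, logarithmic) for channel genes with a terminal peak (green), channel genes without one (red rings) and other protein-coding genes with a terminal peak (grey); the black line is the running mean over 200 genes. KCNH7, KCNB2, KCNQ5, KCNT2 and CACNA2D1 lie more than 2 times above the line, and CACNA1A, at 427 kb, had no intronic peak.

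The channel genes spread to both extremes of this comparison. Of the 51 channel genes of at least 50 kb with a terminal peak, 5 had at least 2 times as many intronic peaks as the genes nearest in length (9.80%, 4.26% to 21.0%), against 3.19% of all such genes. At the other end, 18 had at most 0.25 times as many (35.3%, 23.6% to 49.0%), against 10.9% of all such genes. In all, 17 of the 51 were above the mean of their neighbours in length (33.3%, 22% to 47.0%), against 52.1%. Channel genes poor in intronic peaks were therefore more frequent than among all genes, with a Wilson interval that does not reach the background share. The interval of the rich genes, from 4.26% upwards, also lay above its background share of 3.19%, but it rests on 5 genes. The background shares cover all genes of at least 50 kb and were not matched for length. The rich genes had a median length of 467 kb among the channel genes and 119 kb among all genes. For the poor genes the medians were 202 and 117 kb. The part of gene length in these differences was not tested.

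Among these 51 genes, the 5 richest by ratio were KCNH7 (118 peaks against 44 expected, ratio 2.68), KCNB2 (102 against 39.8, 2.56), KCNQ5 (134 against 52.9, 2.53), KCNT2 (87 against 36.4, 2.39) and CACNA2D1 (112 against 47.2, 2.37). For KCNH7 and KCNB2, 0.5% of the 200 genes nearest in length had as many peaks, for KCNQ5 1%, for KCNT2 1.5% and for CACNA2D1 4%. CACNB2 was next of the 51 with a ratio of 1.87. Shorter genes with few peaks reached higher ratios, such as KCNH4, with 8 peaks in 24.3 kb (3.25). The 5 poorest were CACNA1A, CACNA1G, KCNA2, KCNE1 and KCNK13, each without an intronic peak. For CACNA1A 40.2 peaks were expected and for KCNK13, a tandem-pore channel, 14.0. Further genes over 400 kb with few peaks were KCNH5 (5 peaks, ratio 0.13), KCNAB1 (6, 0.13), KCNS3 (6, 0.13), KCNN2 (6, 0.14), CACNA1D (9, 0.20), KCNJ6 (10, 0.21) and KCNIP4 (17, 0.25). KCNMA1, with 16 peaks in 769 kb and a ratio of 0.252, lay just above the limit.

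The level of the terminal peak moved with this ratio. In the 5 rich genes the strongest terminal peak had 17 to 38 reads (median 25), in the 18 poor genes 4 to 21 (median 11.5) and in the 28 genes between them 5 to 38 (median 18.5). Over all protein-coding genes of this length the medians were 28.5, 11 and 23 reads in the same order. The part of terminal peak height in the ratios was not tested. The 21 reads are those of KCNAB1, whose terminal peak lies past its 3′ end in SSR3, and without it the poor genes reached 18 reads.

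By family, the calcium channel auxiliary subunits had a ratio of 1.80 among genes with a terminal peak (242 intronic peaks against 134 expected) and the voltage-gated potassium channel alpha subunits 1.28 (610 against 475). Calcium channel alpha-1 subunits had 0.74, the calcium-, sodium- and pH-gated potassium channels 0.72, sodium channels 0.70 and tandem-pore channels 0.44. Inward rectifiers, at 0.32, and potassium channel auxiliary subunits, at 0.30, were lowest. These family values rest on few genes. KCNIP4 alone, at 1220 kb the longest channel gene, accounted for 68.7 of the 211 peaks expected in the last family and had 17. For the calcium channel auxiliary subunits with or without a terminal peak, the ratio was 1.38 (244 against 177 expected). CACNA2D3, at 952 kb without a peak, enters only this second value.

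Of the 32 channel genes of at least 200 kb, 6 had no terminal peak (18.8%, 8.89% to 35.3%), against 22% of all genes of that length. They were CACNA1E, the R-type channel, CACNA2D3, KCND3, a subunit of the A-type current, KCNIP1, which binds such subunits, KCNQ1 and SCN7A. CACNA1E, CACNA2D3 and KCND3 had no peak at all in 496, 952 and 219 kb (9.38% of the 32 genes, 3.24% to 24.2%, against 6.86%). KCNIP1 had 2 intronic peaks, SCN7A had 1 and KCNQ1 had 22. Without KCNQ1, long channel genes that lacked a terminal peak thus held almost no intronic peaks.

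In 22 of the 61 channel genes with both kinds of peak (36.1%, 25.2% to 48.6%) the strongest intronic peak was higher than the strongest terminal peak, against 20.4% of all genes. This comparison was not matched for length. Channel genes were longer than all genes (median 70.1 kb against 27.5 kb), and their terminal peaks were lower. The part of either in the difference was not tested. In KCNB2 the strongest intronic peak had 40 reads against 29 at the 3′ end, in KCNT2 28 against 17, in KCNH7 24 against 18 and in CACNB2 24 against 19. The terminal peaks of KCNH7 and CACNB2 also lie in a gene of the opposite strand, and that of KCNH7, the sole one of this gene, is 0.58 kb past its 3′ end with 7 A in the 10 bases after the edge and no core signal. In CACNA2D1 the values were nearly equal, with 26 and 25 reads. KCNQ5, at 36 against 38, and CACNA1C, at 19 against 28, had the higher peak at the 3′ end. The median intronic peak was lower, with 9 reads over all channel genes and 8 over all protein-coding genes. In KCNB2 it was 14, in KCNQ5 12, and in KCNH7, CACNA2D1 and KCNT2 11.

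The sequences next to the intronic peaks fell into different kinds. Strong peaks with a core signal (AATAAA or ATTAAA starting 10 to 40 bases before the 3′ edge) and without an A-rich stretch after the edge are shown for 5 genes, since they carry the hexamer usual at the 3′ end of an mRNA. Each is given as 40 bases up to the edge followed by 20 bases after it. Capitals mark the core hexamer nearest to the edge among those that start 10 to 40 bases before it.

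KCNT2, chr1:196254882-196254941, minus strand: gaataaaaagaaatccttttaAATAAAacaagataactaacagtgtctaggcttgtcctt
KCNQ5, chr6:72657196-72657255, plus strand: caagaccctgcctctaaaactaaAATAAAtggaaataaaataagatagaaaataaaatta
KCNH7, chr2:162591220-162591279, minus strand: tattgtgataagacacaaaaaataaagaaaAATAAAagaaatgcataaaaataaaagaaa
CACNA2D1, chr7:82222657-82222716, minus strand: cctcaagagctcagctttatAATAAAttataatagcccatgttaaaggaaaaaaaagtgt
CACNA1C, chr12:2192646-2192705, plus strand: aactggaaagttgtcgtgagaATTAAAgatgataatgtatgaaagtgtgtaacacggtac

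These peaks had 27 reads in KCNT2, 24 in KCNQ5, 20 in KCNH7, 17 in CACNA2D1 and 15 in CACNA1C. The hexamer started 10 to 20 bases before the edge. The windows of KCNQ5 and KCNH7 contain further A-rich sequence, with 6 A in the 10 bases after the edge, just under the limit of 7. In CACNA2D1 a run of A follows farther downstream, mostly outside these 10 bases. In KCNT2 2 of these 10 bases were A.

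Strong intronic peaks without a core signal but with at least 7 A in the 10 bases after the edge (called A-rich here) are shown for 5 genes, since this was the most frequent kind. Each is given as 20 bases before and 20 bases after the edge, and capitals mark the A among the first 10 bases after it, where an oligo(dT) primer could anneal.

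KCNT2, chr1:196451216-196451255, minus strand: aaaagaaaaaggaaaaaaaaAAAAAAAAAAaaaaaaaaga
CACNA2D1, chr7:82064126-82064165, minus strand: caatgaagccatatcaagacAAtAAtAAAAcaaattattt
CACNB2, chr10:18171566-18171605, plus strand: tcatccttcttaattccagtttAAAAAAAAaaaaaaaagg
KCNH7, chr2:162770680-162770719, minus strand: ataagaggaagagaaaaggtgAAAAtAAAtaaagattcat
KCNC4, chr1:110213163-110213202, plus strand: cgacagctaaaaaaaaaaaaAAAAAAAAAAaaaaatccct

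These peaks had 28 reads in KCNT2, 26 in CACNA2D1, 24 in both CACNB2 and KCNH7, and 20 in KCNC4. In KCNT2, CACNA2D1 and KCNH7 they were higher than the peaks of the first kind shown for the same gene.

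Over all 1369 intronic peaks of the channel genes, 899 were A-rich after the edge (65.7%, 63.1% to 68.1%), against 66.8% of the 115058 intronic peaks of all protein-coding genes. A core signal was present in 191 (14.0%, 12.2% to 15.9%), against 14.0% of all. Both a core signal and a sequence that was not A-rich were found at 97 intronic peaks (7.09%, 5.84% to 8.57%; 8.13% of all). Any of 12 hexamers within 100 bases upstream was found at 54.6% (51.9% to 57.2%), against 49.5% of all. The A-rich and core signal shares thus differed from those of all genes by less than the counting interval, whereas the share with a hexamer in the wider window was higher by more than that interval. These intervals too treat peaks as independent, although 47.1% of the intronic peaks lay in 6 genes. At the terminal peaks a core signal was present in 48.8% (41.2% to 56.4%) and A-rich sequence in 25.3% (19.2% to 32.5%), against 48.2% and 19.98% of the terminal peaks of all genes.

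The genes with the most peaks ranged widely in this respect. A-rich sequence followed 99 of the 134 intronic peaks of KCNQ5, 81 of 118 in KCNH7, 78 of 112 in CACNA2D1, 67 of 102 in KCNB2, 58 of 92 in CACNA1C and 63 of 87 in KCNT2. CACNB2 was highest with 65 of 74, and CACNB4 and KCNH8 had 38 of 47 each. A core signal preceded 16 peaks each in KCNQ5, KCNH7 and KCNB2, 15 in KCNT2, 12 each in CACNA2D1 and CACNA1C and 5 in CACNB2.

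In some genes the A-rich stretch lay on the other strand. In genes with at least 5 intronic peaks, those A-rich on the opposite strand only outnumbered those A-rich on the strand of the gene in 6 of 43 channel genes (14.0%, 6.56% to 27.3%), against 5.79% of all such genes. They were KCNAB1, KCNG2, KCNIP4, KCNK12, KCNMB2 and KCNQ1. The strongest such peak is shown for KCNMB2 and KCNQ1, where this held for most peaks, as 20 bases before and 20 after the edge on the strand opposite to the gene, with the A of the first 10 bases in capitals.

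KCNMB2, chr3:178771469-178771508, minus strand: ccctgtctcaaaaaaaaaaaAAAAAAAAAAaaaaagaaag
KCNQ1, chr11:2696874-2696913, minus strand: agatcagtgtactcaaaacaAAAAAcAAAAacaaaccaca

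KCNQ1 encodes the channel of the slow delayed rectifier of the heart. Of its 22 intronic peaks 15 were A-rich on the opposite strand only and 2 on its own strand, and 21 lay within KCNQ1OT1, the imprinted antisense lncRNA inside the gene. All 22 were in the middle of the gene, 11 in each of the inner 2 of 4 equal parts, none in the outer parts, and KCNQ1 had no terminal peak. KCNMB2, an auxiliary subunit of the large-conductance channel, had 21 intronic peaks, of which 16 were A-rich on the opposite strand only and none on its own. Of these 21, 20 lay in KCNMB2-AS1, an antisense lncRNA, and all 21 in another protein-coding gene annotated on the same strand. In position, 16 were in the last of the 4 parts, and the terminal peak of the gene had 5 reads. In KCNIP4, 15 of 17 intronic peaks were in the last part, and 6 lay in PACRGL, a gene of the opposite strand.

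**Figure D3:**
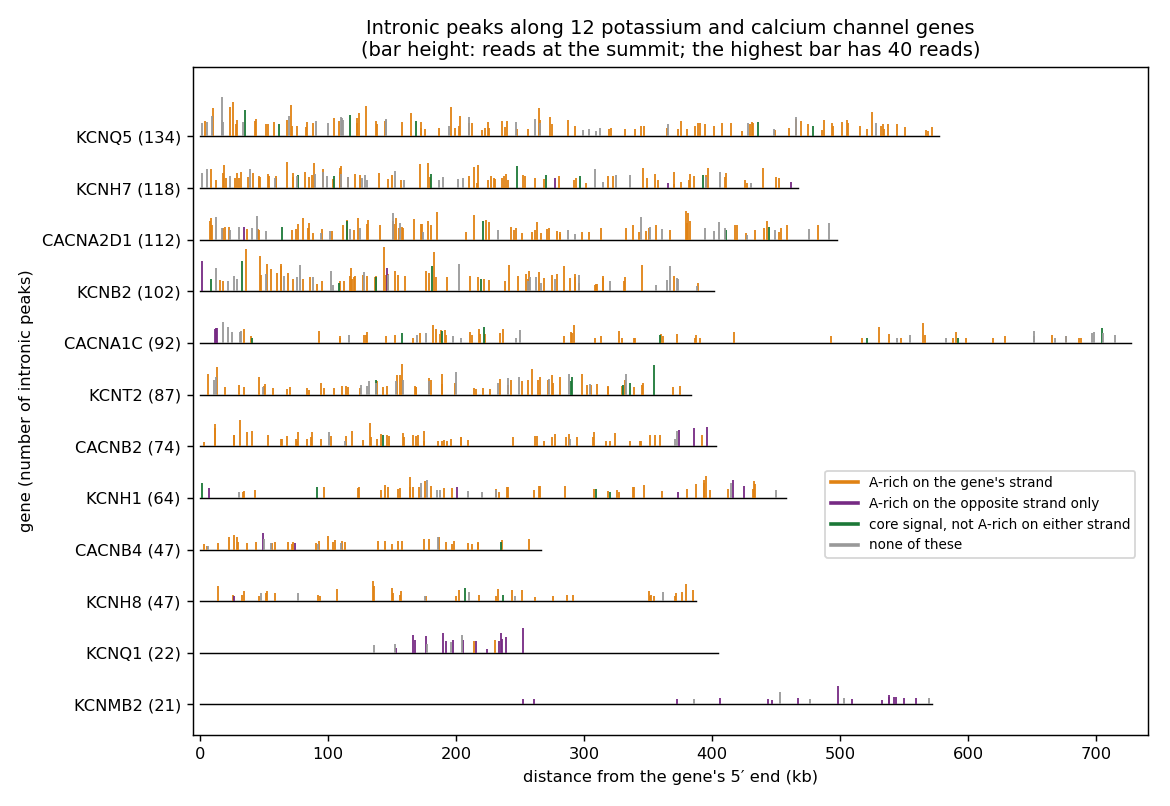
Intronic peaks (vertical bars, height proportional to the reads at the summit) by distance from the 5′ end of the gene (x axis, kb) in the 10 channel genes with the most peaks and in KCNQ1 and KCNMB2 (rows, with the number of intronic peaks). Orange bars, A-rich on the strand of the gene, run along KCNQ5, KCNH7 and CACNA2D1, whereas purple bars, A-rich on the opposite strand only, prevail in KCNQ1 and KCNMB2.

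Over all channel genes, 188 intronic peaks lay in another gene of the opposite strand. Of these 40.4% (33.7% to 47.6%) were A-rich on the strand of the channel gene and 30.9% (24.7% to 37.8%) on the opposite strand only. At the 1136 intronic peaks outside any other gene the shares were 70.0% (67.3% to 72.6%) and 2.55% (1.78% to 3.64%). A peak in an overlapping pair of genes can thus belong to either, and when all such peaks were left out, 62 channel genes had an intronic peak and 55 a terminal peak. These losses are not particular to channel genes. Of their terminal peaks 30.9% (24.3% to 38.4%) lay in another gene, against 28.4% in all protein-coding genes. For intronic peaks the shares were 17.0% (15.1% to 19.1%) and 21.0%.

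Along the gene, intronic peaks were spread over its whole length. In the 39 channel genes of at least 100 kb with a terminal peak, the 4 equal parts of the gene from 5′ to 3′ held 27.0%, 26.7%, 22.2% and 24.1% of 1219 intronic peaks. The shares in all such genes were 26.1%, 25.4%, 25.6% and 22.97%. Part 3 of the channel genes was lower (interval 19.99% to 24.7%). CACNA1C had 25, 32, 11 and 24 peaks in these parts, and KCNH7 had 44, 27, 24 and 23. The first intron held 27.5% (25.2% to 30.03%) of the intronic peaks of channel genes and 29.8% of their intron length, weighted by peaks. In all genes it held 27.3% of the peaks and 25.7% of the length. KCNQ5 had 93 of its 134 peaks in the first intron (69.4%, 61.2% to 76.6%), which makes up 66.8% of its intron length. In KCNT2 the first intron held 25.3% of the peaks (17.3% to 35.3%) and 30.8% of the length.

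At the 3′ end of the genes, 69 peaks lay in the last 600 bases inside, 9 in the 600 bases past the end and 9 in the 600 bases after that. Peaks past the annotated end were therefore few, and no more frequent in the nearer window than in the next.

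The partner genes of the channels, 40 genes that encode sodium channel beta subunits, FGF homologous factors, ankyrins, calcium channel gamma subunits, HCN and NALCN channels and potassium channel partners, were compared in the same way. A terminal peak was present in 29 (72.5%, 57.2% to 83.9%), against 68.7% of all genes. The 919 intronic peaks of these 29 were 1.6 times the 576 expected from genes of like length. Of 14 such genes of at least 50 kb, 4 had at least 2 times the expected number, against 3.19% of all such genes. They were NALF1, a subunit of the NALCN complex (160 peaks, ratio 2.64), and DPP6, which binds A-type channels (154, 2.26). The others were FGF14 (123, 2.04) and STAC (40, 2.01). The 3.19% was not matched for length, and NALF1, DPP6 and FGF14 span 704, 1146 and 692 kb. Among the genes nearest in length to each, 1% had as many peaks as NALF1, 1% as STAC, 4% as DPP6 and 6.5% as FGF14. The part of gene length in this difference was not tested. ANK2 and ANK3, which anchor channels at the membrane, had 102 and 98 intronic peaks. NALCN, the pore of a sodium leak channel, had 5 intronic peaks in 363 kb and no terminal peak, and DPP10 had 1 in 1403 kb and no terminal peak. The last 2 genes lack a terminal peak and are outside the ratio above. Among the partners of at least 50 kb with a terminal peak the lowest ratio was 0.59, in FGF13.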

How the data were processed

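Poly(A) 3′-seq libraries of 10 IMR-32 samples were analysed from the peak list that the authors deposited. Per the study's methods and labels, the authors trimmed reads, mapped them to GRCh38 with STAR 2.5.1b, downsampled and merged the libraries and called peaks with MACS2 2.1.1. The fold (a ratio of pileup to local background) and the −log10 p-value and q-value of each peak are as deposited by the authors. The list has no sample columns, so no depth per library is known and no test between groups or replicates was run.

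The summit pileup was computed from the fold and the p-value (largest mismatch of the −log10 p-value 0.00017). It was at most 200 in the list. How reads at the same position were counted was not tested. Peaks were annotated with GENCODE 44, all transcripts, on chromosomes 1 to 22, X and Y. Sequence was read from GRCh38. The 12 hexamers, searched on the strand of the gene, were AATAAA and ATTAAA, which are the core signals, and their variants. Variants of the first bases were AGTAAA and ACTAAA, as well as TATAAA and CATAAA, together with GATAAA. Variants of later bases were AAGAAA and AATGAA, as well as AATATA and AATACA, together with AATAGA. Some can overlap each other. Among the intronic examples, KCNB2 and windows that touch an exon of a protein-coding gene were not printed. Shares have Wilson intervals and ratios exact Poisson intervals. The steps were tested on simulated data.

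Named were the 12 genes with the highest terminal pileup, the 10 with the most peaks, the 5 highest and 5 lowest ratios, and genes of at least 200 kb without a terminal peak. Some genes and sequences that this rule selects are not reported here. Other genes were named to account for their families, after their values were seen. The genes, lists and rules were chosen with earlier results of these data known. Alternatives changed the q-value, position, terminal window, overlaps, merging, number of neighbours, A content and hexamers. Python 3.11.15, numpy 2.4.6, pandas 2.3.3, scipy 1.17.1, matplotlib 3.10.9 and samtools 1.23.1 were used.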

Additional observations from a re-analysis of the deposited data

How the results depend on the processing

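No paired analysis was possible because every peak was called once over the 10 merged libraries, and for the same reason no replicate could be left out in turn. Of 76 values under alternative settings, 56 stayed close to the value reported (counts within 1.5 times, ratios and shares within their counting interval), among them all those with the centre of the peak as its position, with merged peaks, with 50 or 400 neighbours in length and with the canonical end only. The other 20 moved, and their cause was not tested. When peaks under a −log10 q-value of 5 were dropped, the ratio to genes nearest in length was 0.94, and 1.01 among genes with a terminal peak. At 20 or more, 37 channel genes had a peak, 22 a terminal and 15 an intronic peak, with 38 intronic peaks in all, ratios of 1.08 and 2.02 and an A-rich share of 68.4%. Of the terminal peaks 15.4% reached 20 in channel genes, against 26.7% in all protein-coding genes. Of the intronic peaks 2.78% did, against 2.72%. The side of 1 on which the ratios fell thus depended on this threshold. Without peaks in another gene, the ratio among genes with a terminal peak was 1.02 and the A-rich share 70.0%. The A-rich share was 76.5% with at least 6 A, and 6.65% when 25 bases with at most 3 mismatches to A were required. The hexamer share was 54.6% with all 12 hexamers in the wider window. In settings chosen after the data were seen, leaving out the 6 genes with the most intronic peaks gave 724 peaks, ratios of 0.54 and 0.57, an A-rich share of 62.6% and a first-intron share of 30.1%, and leaving out peaks A-rich on the opposite strand only gave an A-rich share of 70.5%.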
